A study of Drosophila melanogaster with 2 samples.

Results

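Promoter peaks downstream of the start site are Bowl peaks whose summit lay just inside the transcribed part of a gene. They are the peaks of the pooled list whose summit, the position of highest signal, lay 0 to 500 bp downstream of the nearest transcription start of a protein-coding gene. Summits between the starts of 2 divergent genes at most 1000 bp apart were left out. The rule gave 273 peaks of the 2198 in the pooled list, and they belonged to 263 genes. Position alone chose them, not signal. Of the 273 peaks 260 were 310 bp wide, so a peak with its summit near the start also covered the start. The assay was ChIP-seq, in which chromatin bound by the protein is precipitated and sequenced, on whole Drosophila melanogaster embryos, 0 to 24 h old. The embryos came from the strain bowl-GFP, which carries an insertion that makes a Bowl protein fused to eGFP, and sonicated chromatin was precipitated with an antibody against GFP. There were 2 biological replicates of this 1 group and no second group, and the control was not analysed here. Whole embryos over the whole of embryogenesis were pooled, so a peak cannot be placed in a tissue or at a stage.

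Bowl is a transcription factor with zinc fingers and belongs to the odd-skipped family. It acts in the patterning of the embryonic epidermis, the hindgut and the legs, and the protein Lines opposes it. The stretch just downstream of a start holds the 5′ UTR, the first coding exon or the first intron, and it is where RNA polymerase II often pauses after initiation. Core promoter elements sit at or beside the start itself: the initiator in many developmental genes, and a pyrimidine-rich element in the genes of ribosomal proteins.

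The sequences below are from the dm6 assembly (RefSeq Release 6), written 5′ to 3′ on the strand of the gene. The first set holds the 6 members of highest signal with the word ACAGTGG within 100 bp of the summit, and members on 1 chromosome arm, whose sequence is not printed, are left out of every set. This word was chosen from these same peaks with results known. ACAGTGG and its reverse complement CCACTGT are in capitals. The 4 intronic members are shown with the summit and 25 bases on either side, and the 2 members in a 5′ UTR with 11 bases on either side of the word.
Ptp4E, chrX:4939963-4940073, plus strand: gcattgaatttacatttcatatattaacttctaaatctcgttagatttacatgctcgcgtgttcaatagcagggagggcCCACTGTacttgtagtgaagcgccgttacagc
aru, chr2L:867398-867546, minus strand: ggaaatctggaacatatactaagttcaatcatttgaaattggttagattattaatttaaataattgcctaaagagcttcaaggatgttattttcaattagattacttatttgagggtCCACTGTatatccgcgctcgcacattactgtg
rudhira, chrX:11818589-11818718, plus strand: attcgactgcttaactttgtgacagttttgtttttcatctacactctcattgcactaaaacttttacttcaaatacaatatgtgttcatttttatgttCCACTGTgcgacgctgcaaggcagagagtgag
mats, chr3R:22421712-22421805, plus strand: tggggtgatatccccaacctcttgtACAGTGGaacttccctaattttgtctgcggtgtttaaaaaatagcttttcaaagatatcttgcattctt
ph-p, chrX:2137817-2137845, minus strand: aaaaaattgacCCACTGTactcttggttc
CG18622, chr3R:16986563-16986591, minus strand: ctagcgagggaCCACTGTggccgaactca

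In 5 of these 6 members the word read CCACTGT on the gene strand, and in mats it read ACAGTGG. It lay 46 to 95 bp downstream of the summit in those 5 and 40 bp upstream of it in mats. The next set holds the starts of the 3 members of highest signal that have no ACAGTGG within 100 bp, with the start base in capitals, 30 bases before it (15 for lawc) and 14 after it.
CG9147, chr2L:6066057-6066101, plus strand: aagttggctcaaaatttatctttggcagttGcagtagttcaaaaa
lawc, chrX:8410084-8410113, minus strand: gtcgcccgccttcacTtcagtgtgtgagtc
tank, chr2L:4837985-4838029, minus strand: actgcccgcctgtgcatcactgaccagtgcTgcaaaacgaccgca

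The starts of 4 ribosomal protein genes with a downstream peak carry a run of pyrimidines. CTTTC and CTTTT whose C lies within 10 bases of the start are in capitals, and the start base is the one followed by 14 more.
RpL30, chr2L:19009223-19009252, minus strand: atttccgcctgttcttcctCTTTCTTTTgc
RpS7, chr3R:30208928-30208957, minus strand: tcgtggctcgacttcCTTTCctgtcaaaat
RpL9, chr2L:11004139-11004168, minus strand: gccacattaaatttcccttCTTTTCTTTTc
RpL8, chr3L:2587426-2587470, plus strand: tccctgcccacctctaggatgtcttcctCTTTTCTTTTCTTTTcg

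The last set shows the 4 members of highest signal whose start holds TCAGT, the core of the initiator, with its A within 2 bases of the start. TCAGT is in capitals.
drm, chr2L:3539703-3539747, plus strand: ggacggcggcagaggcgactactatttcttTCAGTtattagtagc
trn, chr3L:13114241-13114285, plus strand: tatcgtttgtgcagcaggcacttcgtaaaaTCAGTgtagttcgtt
CG17292, chr2L:8370515-8370544, plus strand: gtttctagcgagagaTCAGTtggacttttg
qtc, chr2L:5060785-5060829, plus strand: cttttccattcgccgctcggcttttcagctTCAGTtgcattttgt

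Downstream peaks crowded against the start. The median summit lay 91 bp downstream (quartiles 47 and 213 bp), and 182 of 273 (66.7%) lay within 149 bp. By the same rule the median was 86 bp in replicate 1's own list (202 peaks) and 164 bp in that of replicate 2 (48 peaks). The crowding in the pooled list was not a feature of the candidate regions that its peaks were drawn from. A candidate is a region in the authors' ranked list, and 273 of 11373 candidates downstream of a start were in the pooled list (2.4%), against 498 of 6713 candidates upstream (7.42%) and 2198 of 132019 at all positions (1.66%). Of the candidates in the first 50 bp downstream, 5.75% were listed (95% Wilson interval 4.60 to 7.17%), and of those 50 to 99 bp downstream 5.56%. The share was 3.08% at 100 to 149 bp and between 0.992% and 1.46% in every 50 bp step beyond that, which is under the share over all positions.

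Upstream peaks were arranged differently. In the first 50 bp the listed share was 5.75% downstream and 5.32% upstream (4.05 to 6.96%), so the intervals overlapped. At 150 to 199 bp it was 1.46% downstream (0.914 to 2.33%), against 11.5% upstream (9.43 to 13.98%). No test was made of the shape. A further 15 downstream candidates passed the authors' threshold without standing in the pooled list, and they are not counted among the members.

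**Figure D1:**
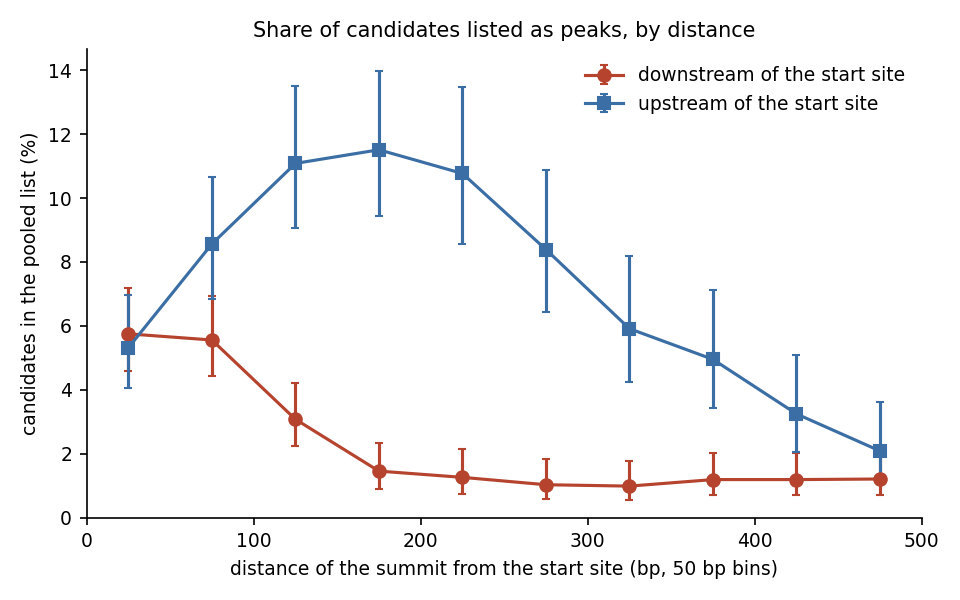
Share of candidates that are in the pooled list (%, y axis) by distance of the summit from the start site (bp, in steps of 50, x axis), downstream in red and upstream in blue, with 95% Wilson intervals. Downstream the share is highest in the first 50 bp, at 5.75%, and upstream it is highest at 150 to 199 bp, at 11.5%.

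Where a downstream peak lay in the gene differed from where a candidate lay that failed the authors' threshold. The summit was in a 5′ UTR in 188 of 273 peaks (68.9%, 63.1 to 74.1%), against 34.4% of the 11085 failing downstream candidates. It was in coding sequence in 22 peaks (8.06%, 5.38 to 11.9%), against 49.2% of failing candidates. It was in an intron in 63 peaks (23.1%, 18.5 to 28.4%), against 15.7%. The log2 odds ratios were 2.07 for the 5′ UTR (adjusted p = 1.57e-29), -3.47 for coding sequence (adjusted p = 4.85e-47) and 0.69 for introns (adjusted p = 0.00212), by two-sided Fisher's exact tests adjusted over the 7 tests made. The summit came before the first annotated start codon downstream of the assigned start in 230 of 273 peaks. That codon need not be the first of the gene, and the CG31729 summit at 86 bp lay before it but in coding sequence.

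Distance to the start matters here, because peaks lay nearer to it than failing candidates. Within 149 bp, 164 of 182 peaks (90.1%) were in a 5′ UTR, against 70.2% of failing candidates, and 4.40% were in coding sequence, against 24.2%. The intron share within 149 bp was 5.49% in peaks and 5.52% in failing candidates. Beyond it, from 150 to 500 bp, 53 of 91 peaks (58.2%) were in an intron, against 20.5% of failing candidates, and 15.4% were in coding sequence, against 61.1%. The shortage of coding summits thus stood in both distance ranges, and the surplus of intronic ones in the farther range alone. The log2 odds ratio for introns within 149 bp was -0.01 (adjusted p = 1, exact Fisher test). The call for introns was also lost with a window of 250 bp, with 1 start per gene, and with the list of replicate 1 alone, where the log2 odds ratios were 0.085, 0.35 and 0.34 in that order.

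**Figure D2:**
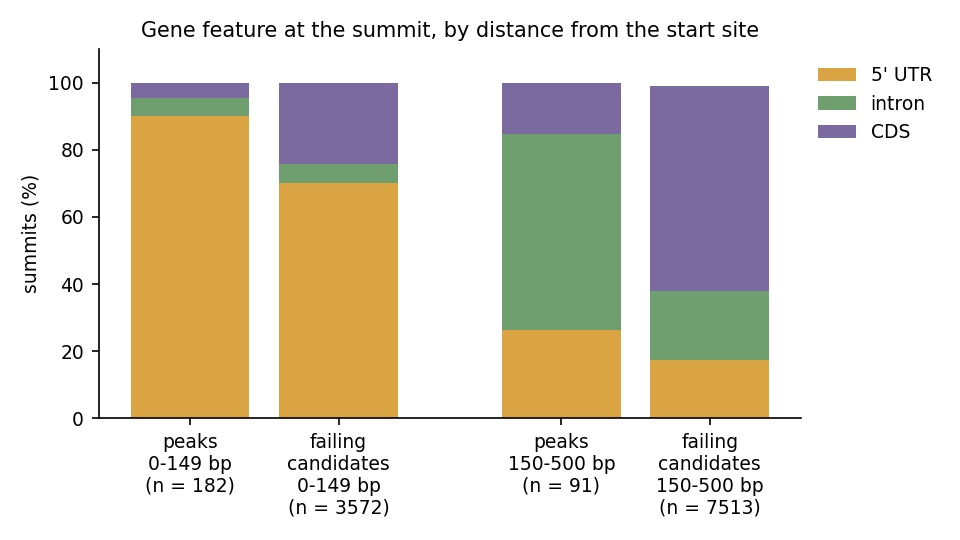
Share of summits (%, y axis) in 5′ UTR, intron and coding sequence (CDS), for downstream peaks and for failing downstream candidates, 0 to 149 bp and 150 to 500 bp from the start. Within 149 bp 90.1% of peaks are in a 5′ UTR, and beyond it 58.2% are in an intron.

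Downstream peaks were weaker than upstream ones. The signal is a score from the authors' peak caller with no stated scale, and it is used here only within a list. Its median was 71.4 in the 273 downstream peaks (quartiles 63.9 and 86.0, range 2.78 to 483), against 94.4 in the 498 upstream peaks (quartiles 70.3 and 153, highest 817). Of the downstream peaks, 83 (30.4%, 25.2 to 36.1%) reached the median of the pooled list, 82.6, against 295 of the upstream peaks (59.2%, 54.9 to 63.5%). The log2 odds ratio was -1.73 (adjusted p = 3.90e-14, exact test after Fisher). Among the 100 strongest peaks of the list 7 were downstream ones, and among the 500 strongest 24 were (4.8%). Downstream peaks made up 12.4% of the whole pooled list. Peaks are not independent samples, so these p-values say nothing of the spread between collections of embryos.

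The 12 strongest members were in the lists of both replicates. The values of the replicates come from separate lists and are given side by side, not compared. GstE13, a glutathione S-transferase gene, had the strongest peak, 62 bp downstream, with a signal of 483 in the pooled list, 296 in replicate 1 and 192 in replicate 2. CG9147 had 418 at 1 bp (249 and 171 in replicates 1 and 2), which was also the summit nearest to a start. CG8320 had 416 at 87 bp (239 and 178). These 3 stood high in each replicate.

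The fourth, lawc, a gene that acts in the development of legs, antennae and wings, had 382 at 67 bp, with 340 in replicate 1 and 38.5 in replicate 2. Its replicate 1 value was the highest of any member, while its replicate 2 value was just above the upper quartile of the members there, 37.7. The gene tank had 347 at 130 bp (193 and 157), and CG9399 had 311 at 59 bp (162 and 149).

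The other 6 lay farther in. The Polycomb group gene ph-p had 296 at 478 bp (188 in replicate 1, 114 in replicate 2). The fly homologue of the chloride channel gene CFTR, Cftr, had 264 at 210 bp (157 and 102), and the receptor tyrosine phosphatase gene Ptp4E had 239 at 407 bp (119 and 113). CG18622 had 220 at 227 bp (139 and 86.2), CG31612 had 198 at 483 bp (94.6 and 105), and aru had 185 at 492 bp (99.1 and 82.0). Of the 12, 6 lay within 149 bp and 4 lay 400 to 500 bp from the start.

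**Figure D3:**
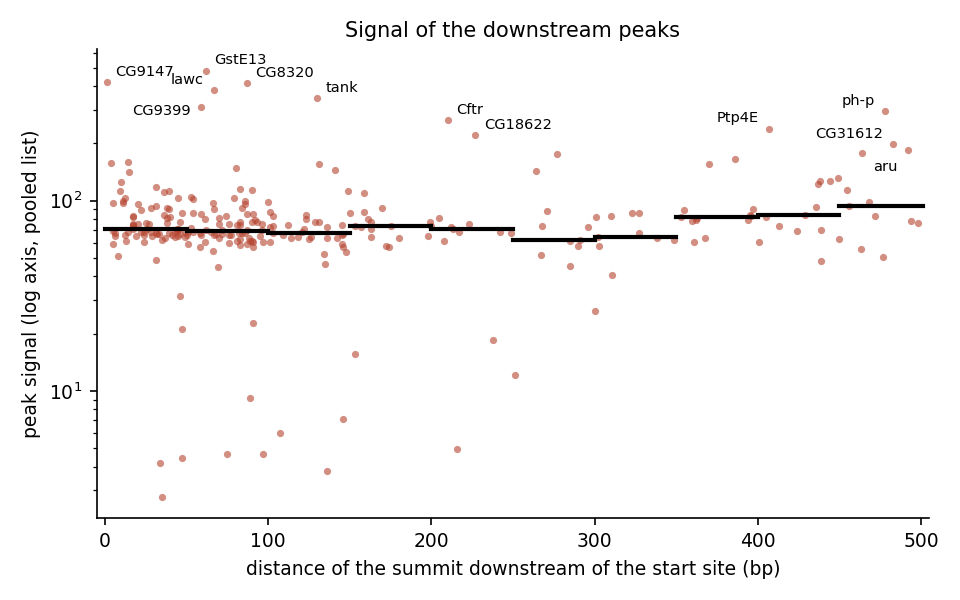
Signal in the pooled list (y axis, log scale) against distance of the summit downstream of the start (bp, x axis) for the 273 downstream peaks, with the median of each 50 bp step as a black bar and the 12 strongest named. Most lie near the median of 71.4, and 17 lie under 40.

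The farthest members were not like the nearest ones. The 26 members 400 to 500 bp downstream had a median signal of 88.3, and 15 of them (57.7%) reached the list median, against 51 of the 182 within 149 bp (28.0%), whose median was 69.6. They were in both replicate lists in 10 cases (38.5%), against 23 within 149 bp (12.6%). The base composition differed too: the median GC content over the 101 bp around the summit was 37.6% in the far group and 47.0% in the near one. Over all members it was 45.5%, against 35.6% for upstream peaks. The far group was small and set from the distances at hand, and these contrasts were not tested. At the limit of 500 bp, the last members were CG15247 at 494 bp (77.7) and Sec13, which encodes a coat and nuclear pore protein, at 498 bp (76.1). The first peaks outside were those of CG31523 at 502 bp (134) and Eip63F-1 at 503 bp (153).

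A group of 17 members had a signal under 40, a limit set after the values were seen. Of these, 16 had a stronger peak of the pooled list 199 to 391 bp away, against 14 of the 256 other members with any pooled peak within 500 bp. The 3 weakest were Hers (2.78), scf (3.80) and CG8132 (4.16), at 35, 136 and 34 bp from their starts. Where such a member touched a peak of a replicate list, that peak can be the neighbour's. Without these 16 and the like elsewhere in the list, 257 downstream peaks were left and the calls of the tests did not change.

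The replicate lists held downstream peaks less often than upstream ones. Both replicate lists held 44 of the 273 downstream peaks (16.1%, 12.2 to 20.9%), against 173 of the 498 upstream peaks (34.7%, 30.7 to 39.0%), with a log2 odds ratio of -1.47 (adjusted p = 3.57e-08, Fisher's exact test). Neither list held 111 downstream peaks (40.7%), against 20.7% of the upstream ones. Replicate 1 held 152 (55.7%) and replicate 2 held 54 (19.8%), from lists of 1662 and 772 peaks. Applied to each replicate's own list, the same rule gave 202 downstream peaks in replicate 1 and 48 in replicate 2, whose median distance was 164 bp. The conservative list, which the authors made from the comparison of the replicates, held 134 downstream peaks (49.1%, 43.2 to 55.0%), against 353 upstream ones (70.9%, 66.7 to 74.7%), with a log2 odds ratio of -1.34 (adjusted p = 4.59e-09). Of the peaks in replicate 2's own list, the conservative list held 46 of 48 downstream and 195 of 203 upstream ones (log2 odds ratio -0.08). With nearly all of them held, that setting could hardly show a difference.

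On either side of the list median, no such difference passed the test. The sides are broad and do not match the classes in signal, whose upper quartile was 86.0 downstream and 153 upstream. The split therefore cannot show whether the difference remains at equal signal. Among peaks at or above the list median, 38 of 83 downstream peaks (45.8%, 35.5 to 56.4%) were in both replicate lists, against 169 of 295 upstream peaks (57.3%, 51.6 to 62.8%), and the difference did not pass the test (log2 odds ratio -0.67, adjusted p = 0.120, exact Fisher test). In the same range the conservative list held 95.2% of downstream and 94.6% of upstream peaks. Under the median, 6 of 190 downstream peaks (3.16%) and 4 of 203 upstream peaks (1.97%) were in both lists. The 6 include peaks under 40 at AP-1sigma (4.66), Rbsn-5 (4.42), CG8132 (4.16) and eIF3h (7.15). The 4 include peaks under 40 at GstE12 (16.4) and Ppa (12.9). For peaks so weak the replicate peak can be a neighbour's. All 273 members overlapped a candidate in replicate 1, with a median signal of 45.4, and 266 overlapped one in replicate 2, with a median of 28.2. The scales of these lists are not stated, so the medians are not compared. Over the 266, Spearman's rho between the replicates was 0.236, against 0.651 over 482 upstream peaks, whose signals spanned a wider range.

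**Figure D4:**
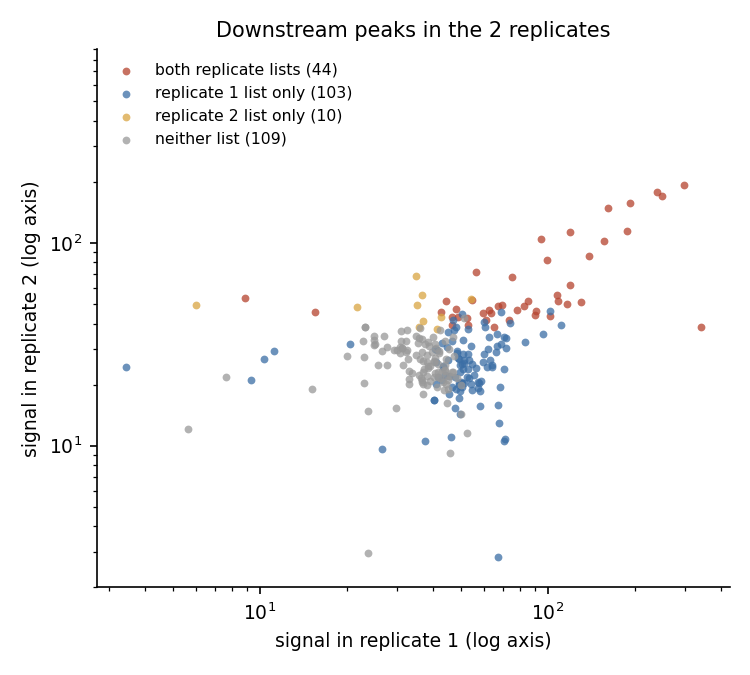
Signal in replicate 2 (y axis) against replicate 1 (x axis), both on log scales, for the 266 downstream peaks with a candidate in each replicate, coloured by the replicate lists that hold them. The 44 in both lists reach highest in each replicate, and lawc stands apart at 340 in replicate 1 and 38.5 in replicate 2.

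The word ACAGTGG was uncommon in downstream peaks. Because it was chosen from these same peaks with results known, its shares are descriptions and were not tested. Failing candidates were not matched to the peaks in distance from the start. It lay within 100 bp of the summit in 13 of 273 (4.76%, 2.80 to 7.98%), against 47 of the 498 upstream peaks (9.44%, 7.17 to 12.3%) and 2.63% of failing downstream candidates. Within 50 bp it was found in 3 members (1.10%), against 2.01% upstream and 1.33% in failing candidates. Of the 13, 9 reached the list median and 7 were in both replicate lists, and in 11 the nearest copy lay 40 to 99 bp downstream of the summit. Among the 12 strongest members 4 held it: ph-p, Ptp4E, CG18622 and aru. Members 400 to 500 bp from the start held it in 5 of 26 (19.2%), against 4 of 182 (2.20%) within 149 bp. Within 200 bp, 26 members held it, on the gene strand in 8 (30.8%), against 28 of 71 upstream peaks (39.4%), and the orientation did not differ detectably (log2 odds ratio -0.55, adjusted p = 0.485, Fisher's exact test).

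Other short words, read on either strand up to 100 bp from the summit, were counted as a description. Failing candidates were not matched to the peaks in distance. Within 149 bp of the start lay 182 of 273 peaks but 3572 of 11085 failing candidates. What this does to the shares was not tested. TCAGT of the initiator lay near 42.5% of downstream peaks, against 38.2% of upstream peaks and 31.0% of failing downstream candidates. GAGAG, bound by the GAGA factor, lay near 32.6%, against 38.8% and 23.7% in the same order. TATAAA of the TATA box lay near 16.8%, against 30.3% and 11.6%, and TAATTA, a core of homeodomain sites, near 5.49%, against 13.5% and 5.46%. GGTCACAC, a short form of the core promoter element Motif 1, lay near 3.66%, against 1.20% of upstream peaks and 1.20% of failing candidates. CAGTAGC, a form of the site of the odd-skipped family, lay near 3 members (1.10%), against 3.21% and 2.10%. TCAGT and CAGTAGC can overlap and then count for both.

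At the start itself, TCAGT had its A within 2 bases of the start in 36 of the 268 starts of downstream peaks (13.4%, 9.86 to 18.0%). The share was 12.4% at the starts of upstream peaks and 6.52% over all 19276 protein-coding starts searched. TATAAA stood 40 to 20 bases before the start in 4.10% of downstream starts, against 3.30% of upstream starts and 6.86% of all. Words of 8 bases held by at least 10 members were ranked after the fact by their share in members over that in failing candidates, again not at like distance. AGTTTCAA led, with 12 members (4.40%), against 1.41% of upstream peaks and 0.713% of failing candidates. AACTGAAA stood lower in that order and was singled out after its values were seen, for its number of members. It was held by 22 members (8.06%), against 1.41% of upstream peaks and 2.17% of failing candidates. Of its 23 copies 14 read TTTCAGTT on the gene strand, which contains TCAGT, and 10 began between 10 bases before and 3 after the start.

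Ribosomal protein genes had downstream peaks close to their starts. Of 92 genes for cytoplasmic ribosomal proteins, 10 had one (10.9%), against 263 of all 13986 protein-coding genes (1.88%). A peak between divergent starts was found at 26 genes of the list, against 301 of all genes, and RpL4 had both kinds. Among genes with any downstream candidate the shares were 18.5% for this list and 3.08% for all genes. The median distance was 19.5 bp, against 91 bp over all members. RpL30 had 113 at 9 bp (73.2 in replicate 1, 41.7 in replicate 2) and RpS7 had 103 at 12 bp (61.2 and 41.8), and both were in both replicate lists. RpL9 had 102 at 54 bp (71.6 and 30.4) and RpL8 had 99.1 at 11 bp (66.3 and 29.1), in the list of replicate 1 alone. RpL4 (15.6) and RpL11 (9.14) were the lowest, and both were among the members with a stronger peak beside them. CTTTC or CTTTT had its C within 10 bases of the start in all 10 of these starts, against 16 of the 258 other starts of downstream peaks (6.20%). This element marked 55.8% of all ribosomal protein starts, with or without a peak. A stricter form, TCTTT with its C within 2 bases of the start, was rare. It stood at 1 of the 10 starts and at 0 of the 258 others. Of all ribosomal protein starts, 14 of 154 (9.09%) had this stricter form.

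Of 56 chromatin regulator genes 6 had a downstream peak (10.7%), against 1.88% of all protein-coding genes. A peak at any position was found in 16 of the 56, against 1643 of all 13986. The 6 with a downstream peak were ph-p, Su(z)2, Trl, Tlk, Su(z)12 and BEAF-32. Apart from ph-p, the signals were moderate. Su(z)2, a Polycomb group gene, had 97.4 at 66 bp of 1 start and 68.1 at 65 bp of another. Trl, which encodes the GAGA factor, had 91.5 at 170 bp (46.6 in replicate 1, 42.9 in replicate 2) and was in both replicate lists. The kinase gene Tlk (66.2 at 145 bp) and Su(z)12, a subunit gene of the Polycomb complex that methylates histone H3 (63.9 at 136 bp), were in neither. BEAF-32, which encodes an insulator protein, had 63.4 at 114 bp.

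Of 93 patterning and fate transcription factor genes 42 had a peak at any position, against 1643 of all 13986 protein-coding genes. A downstream peak was found in 7 (7.53%), against 1.88% of all genes, and an upstream one in 19, against 459 of all genes. The strongest downstream one was that of drm, a member of Bowl's own odd-skipped family that acts against Lines in the gut, with 98.7 at 468 bp (68.6 in replicate 1, 31.7 in replicate 2). The zinc-finger gene tsh, of the embryonic trunk, had 69.5 at 424 bp (32.5 and 37.1), chinmo, a timing factor of the nervous system, had 67.6 at 58 bp, and CHES-1-like, a forkhead gene, had 67.2 at 327 bp. Of these, tsh and CHES-1-like were in neither replicate list. The Hox gene Ubx had 59.4 at 145 bp and was in neither replicate list. bowl itself had 21.2 at 47 bp (26.5 in replicate 1, 9.57 in replicate 2), with a stronger peak 391 bp away. The labels name an insertion targeting bowl but do not say whether it adds a further copy of the gene. If it does, signal at bowl can come from either copy, and a peak list cannot tell them apart.

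Downstream peaks were also found in 3 of the signalling lists, where the share over all protein-coding genes was 1.88%. The 1 gene of 27 in the Wnt list with such a peak was lin, which encodes Lines, the protein that opposes Bowl. Its peak had 179 at 464 bp (130 in replicate 1, 51.0 in replicate 2) and was in both replicate lists. Of 28 genes in the Notch list 2 had one (7.14%), both in neither replicate list: numb, an inhibitor of Notch, had 79.9 at 61 bp, and Nedd4, a ubiquitin ligase gene, had 70.1 at 72 bp. Of 19 genes in the Dpp list 2 had one (10.5%). There cv-2 had 82.4 at 40 bp, with 70.5 in replicate 1 and 10.6 in replicate 2, and sog, in neither replicate list, had 57.1 at 146 bp. Both encode extracellular proteins that bind Dpp family ligands. No gene of the Hedgehog (18 genes), receptor tyrosine kinase (29) or JAK/STAT (12) list had a downstream peak in the pooled list. At that share lists of this size would hold few or none. The 15 downstream candidates past the threshold but outside the pooled list were not counted for any gene list.

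Among nuclear receptor and ecdysone response genes, Eip75B had 112 at 36 bp (62.3 in replicate 1, 46.4 in replicate 2) and was in both replicate lists, and Eip78C had 61.3 at 90 bp and was in neither. The E2F partner gene Dp had 82.5 at 396 bp and was the 1 of 47 cell cycle genes with a downstream peak. The splicing regulators Sxl and mub had 78.9 at 394 bp and 65.9 at 12 bp. Among translation factors, eIF3h had 2 intronic summits, 82.4 at 353 bp and 7.15 at 146 bp, and eEF5, in neither replicate list, had 70.1 at 87 bp. No downstream peak was found at 73 mitochondrial ribosomal protein, 48 proteasome, or 66 RNA polymerase II and general factor genes, and at the share of 1.88% over all genes such lists would hold few. These lists were drawn up with earlier results of the data known, and the shares are descriptions. They count peaks of the pooled list only, without the 15 downstream candidates past the threshold that it lacks.

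There were 10 genes with 2 members each. CG9399 had 311 at 59 bp and 79.7 at 123 bp of separate starts, and CG31729 had summits 86 bp and 395 bp downstream, the second with 84.3. Sik3, a salt-inducible kinase gene, had 80.4 at 161 bp and 68.3 at 43 bp, and lola, a transcription factor gene with many isoforms, had 63.5 at 88 bp and 62.0 at 35 bp. Gli had 84.3 at 429 bp and 4.92 at 216 bp, and the pairs at BI-1, CG43116, Sry-delta and eIF3h likewise held 1 member under 40. A start is a matter of annotation: 178 of 273 members belonged to genes with 2 or more starts, and 33 had another start of the same gene within 500 bp downstream of the summit. The summit of 27 members lay inside another protein-coding gene. Besides CG9147, the summits nearest to a start were those of scyl, an inhibitor of TOR signalling, with 157 at 4 bp, and of IP3K1, CG15390 and Samuel, each at 5 bp, with 96.7, 69.2 and 58.8.

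Members lay on the 5 large chromosome arms, with 32 on X (11.7%), against 18.6% of the other peaks of the list and 17.1% of failing downstream candidates. The other 4 arms held 54 to 64 each, and chromosome 4 held 0, where 16 failing downstream candidates lay. No test was made of the arms.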

How the data were processed

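Bowl-eGFP was mapped by ChIP-seq in 2 biological replicates of whole embryos, and the lists are on dm6, per the labels. The authors deposited a ranked and a thresholded list of each replicate and of the pool, and a conservative list. The signal of each region is a score of the authors' peak caller, with no stated scale. The second value used is the deposited −log10 of the irreproducible discovery rate (IDR), and every listed peak had at least 2, an IDR of 0.01. The sources used here name no peak caller or aligner, and the lists hold no read counts, so depth is unknown.

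Summits were assigned to the nearest protein-coding start of Ensembl release 115 (BDGP6.54), on the gene strand, and placed in coding sequence, 5′ UTR, 3′ UTR or intron, in that order. Failing candidates are pooled downstream candidates with a −log10 IDR under 2. A replicate list held a peak that it overlapped by 1 bp or more, and a replicate's signal is that of the overlapping candidate with the nearest summit. Two-sided Fisher's exact tests compared shares (scipy 1.17.1) adjusted after Benjamini and Hochberg over 7 tests, and intervals are 95% Wilson intervals that cover counting error only. The scripts were tested on simulated data. Words were read on either strand up to 100 bp from the summit. Of the names in 16 gene lists, 12 were matched through RefSeq synonyms and 5 stayed unmatched. The members and lists were chosen with earlier results of these data known.

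Genes named are the 12 strongest members, up to 4 of each list by signal, genes with 2 members, and the members nearest to the start, at the limit and of lowest signal; IP3K1, CG15390, Samuel, trn, CG17292, qtc, and the lowest members of the ribosomal, chromatin and patterning lists were added after their values were seen. Alternatives were the conservative list, peaks at or above the median signal, each replicate's own list, a window of 250 bp, 1 start per gene, a divergent limit of 2000 bp, the listing of every candidate past the threshold, summits within 50 bp in place of overlap, and word windows of 50 and 200 bp. Windows of 149 bp, peaks under the median and the list without side peaks were added after the data were seen.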

Additional observations from a re-analysis of the deposited data

How the results depend on the processing

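The number of downstream peaks was 273 in the pooled list, 148 in the conservative list, 83 at or above the median signal, and 48 to 202 in the lists of single replicates. The lower share of strong peaks, the lower coding share and the higher 5′ UTR share kept their direction and call under every alternative that gave a value. By Fisher's exact tests, the lower share in both replicate lists was not past the threshold at or above the median signal (log2 odds ratio -0.67) and turned round under it (0.70, adjusted p = 0.639). The value under the median rests on 6 downstream and 4 upstream peaks. By the same exact test, the lower conservative share turned round at or above the median (0.18, adjusted p = 1) and was not past the threshold under it (-0.49). It ran from -1.33 to -0.084 over the lists of single replicates. In replicate 2's list, 46 of 48 downstream and 195 of 203 upstream peaks were conservative ones, so that list could hardly show a difference. By exact tests, the surplus of intronic summits was not past the threshold with a window of 250 bp (0.085) or with 1 start per gene (0.35), turned round within 149 bp (-0.0057, adjusted p = 1), and ran from 0.34 to 1.65 over the lists of single replicates, lost in that of replicate 1. The share with ACAGTGG was 10.8% at or above the median signal, 1.10% within 50 bp, 9.52% within 200 bp, and 4.46% to 14.6% over the lists of single replicates. The median distance was 86 to 164 bp over those lists. The orientation of ACAGTGG differed detectably under none of the alternatives run. The cause of these changes was not tested.

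Shares of the replicate lists in themselves, of the conservative list in itself, and of peaks at or above the median among such peaks give no value and were not run. No paired analysis was possible because there is 1 group. Read depth is unknown. Peaks of 1 gene and neighbouring summits share chromatin fragments. No untreated control was analysed here, so background binding common to open promoters was not tested.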
